A study of Mus musculus with 24 samples.

Results

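The interleukin 22 receptor axis was followed in RNA sequencing of the mouse distal jejunum through 7 genes, of 56691 genes listed in the count table and 34471 with a count in at least 1 library. They are Il22ra1 and Il10rb, which encode the receptor chains, Il22, the ligand, Il22ra2, a soluble decoy receptor, Stat3 and Socs3, a transcription factor and a feedback inhibitor downstream of the receptor, and Il18, an epithelial cytokine. The genes were picked by name, knowing the difference of Il22ra1 between genotypes in control males. That contrast, and the effects of succinate in males that reuse the same control mice, are therefore given for these genes as a description, with no test.

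The 24 mice fell into 8 groups of 3, by sex, genotype and treatment. Mice were wild type or carried a germline knockout of Ptk6, an intracellular tyrosine kinase, backcrossed to C57BL/6. They drank either regular water, as controls, or water with 100 mM succinate for 7 days, and all were 9 to 11 weeks old at the end. The mice came from several litters of a single colony, and 1 library was made from poly(A) RNA of each mouse, so the 3 libraries of a group are 3 animals. Succinate in drinking water activates tuft cells, chemosensory cells of the intestinal epithelium, and is used to set off type 2 immunity.

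Interleukin 22 is made mainly by innate lymphoid cells and T cells that respond to interleukin 23 and interleukin 1. It binds a heterodimer of IL22RA1, found on epithelial cells, and IL10RB, shared with other cytokines of the interleukin 10 family, and the kinases JAK1 and TYK2 bound to these chains lead to phosphorylation of STAT3. In the small intestine this pathway is known for the antimicrobial lectins of the Reg3 family, for fucosylation of the epithelial surface through Fut2, and for a part in Paneth and goblet cell differentiation. Il18 is produced by the epithelium as a precursor that inflammasome caspases cleave, and it has been linked to interleukin 22 in both directions.

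Upstream sequence was read for the 5 of 7 genes that had an entry in the RefSeq promoter table of GRCm38.p6, to show which windows hold the palindromic core bound by STAT proteins, TTCNNNGAA. This motif is its own reverse complement, so a single search covers both strands. The windows of Il22ra1 and Stat3 are shown because these genes varied together across libraries. They are the 250 bases before the annotated start, on the strand of the gene, at chr4:135727909-135728158 (plus strand) and chr11:100939541-100939790 (minus strand), and contain 0 bases of exons annotated by GENCODE on that build.
Il22ra1: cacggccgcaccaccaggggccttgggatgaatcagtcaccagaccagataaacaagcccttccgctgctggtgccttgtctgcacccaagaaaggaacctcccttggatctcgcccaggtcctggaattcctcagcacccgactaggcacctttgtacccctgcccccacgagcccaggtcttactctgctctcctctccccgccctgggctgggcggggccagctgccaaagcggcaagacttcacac
Stat3: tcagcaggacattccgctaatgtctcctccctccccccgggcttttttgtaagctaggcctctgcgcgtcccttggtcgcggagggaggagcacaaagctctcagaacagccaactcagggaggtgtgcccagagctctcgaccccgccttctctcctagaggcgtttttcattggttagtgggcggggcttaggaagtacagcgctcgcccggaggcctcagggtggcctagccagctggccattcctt
Neither window holds the motif, nor do those of Il22 and Il18. The window of Socs3, a feedback inhibitor that STAT signalling induces, holds 1 match, which ends 145 bases before the annotated start. It is shown with 10 bases on each side, chr11:117969502-117969530 (minus strand), with the match in capitals.
Socs3: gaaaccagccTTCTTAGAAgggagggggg
Of 32851 promoter windows of 250 bases, 2306 (7.02%) hold at least 1 match. In the window of Socs3 77 bases and in that of Il22 22 bases lie in annotated exons, and the bases just after the RefSeq starts of Socs3, Il22ra1 and Il18 were found in no GENCODE transcript of these genes, so the start of these genes differs between the annotations. A match of these letters is a description of the sequence, and its use in these cells was not measured.

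The libraries had 8080321 to 52824743 counts, and the targeted gene had 284 to 2405 counts in wild type mice and 7 to 61 in Ptk6-/- mice. Markers of intestinal epithelium were present in each library, and Epcam, for example, lay between 1015 and 3397 CPM (counts relative to library size, with sizes scaled by the TMM method). Some libraries stood apart. Replicate 1 of the succinate-treated Ptk6-/- males had the lowest total, with 29.7% of its counts on 18S ribosomal RNA, and replicate 1 of the control wild type males had 51.2% on the same RNA. Among succinate-treated wild type females, replicate 2 had 15356 CPM on 6 heart muscle markers, where the other libraries had 14.0 to 202. It also had 2291 counts on Y-linked genes, where the other females had 0 to 42 and the males 122 to 4863. This library was kept under its label in the main fits. Libraries also differed in how counts followed gene length: the trend of log2 CPM, centred over libraries, with log2 length of the gene gave a slope per library, called length slope here, that ran from -0.18 to 0.15.

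Compared per unit of length, as the deposited FPKM (fragments per kilobase, scaled to sequencing depth), Il10rb had the highest median over the 24 libraries at 17.0, followed by Il18 at 13.4, Socs3 at 10.6, Stat3 at 9.69 and Il22ra1 at 7.61. The decoy receptor Il22ra2 had 0.506, and Il22 itself was listed at 0 in the median library. Both chains of the receptor and its downstream genes were thus detected in each of the 24 libraries, and the ligand was near the limit of counting.

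Il22ra1 (chr4:135455483-135479451, plus strand, positions of members on GRCm39) encodes the chain that gives the receptor its specificity. Control wild type males had 25.9, 29.1 and 31.6 CPM, and control Ptk6-/- males had 103, 77.7 and 115 CPM, in the order of the replicates. In control females, wild type mice had 21.8, 2.85 and 9.19 CPM and Ptk6-/- mice 50.4, 112 and 5.54 CPM. The control males formed groups that did not overlap and were tight in CPM, whereas each female group spread over a wide range and the third Ptk6-/- female lay among the wild type females. Under succinate, wild type males had 75.7, 5.38 and 6.51 CPM and Ptk6-/- males 17.8, 89.1 and 48.4 CPM. Wild type females had 3.75, 3.44 and 42.1 CPM under succinate, and Ptk6-/- females 13.4, 3.49 and 28.8 CPM. Within these 4 groups the highest mouse was 4.998-fold to 14.1-fold above the lowest, and the ranges of all 4 overlapped. The spread within a group depends on the scaling where ribosomal RNA took many counts. In the deposited FPKM control wild type males had 3.49, 9.02 and 9.61 and control Ptk6-/- males 35.1, 24.4 and 33.4, still without overlap, and succinate-treated Ptk6-/- males had 1.59, 24.7 and 14.2. In these wild type and succinate-treated groups the lowest value was that of the library with 51.2% or 29.7% of its counts on 18S RNA.

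**Figure D1:**
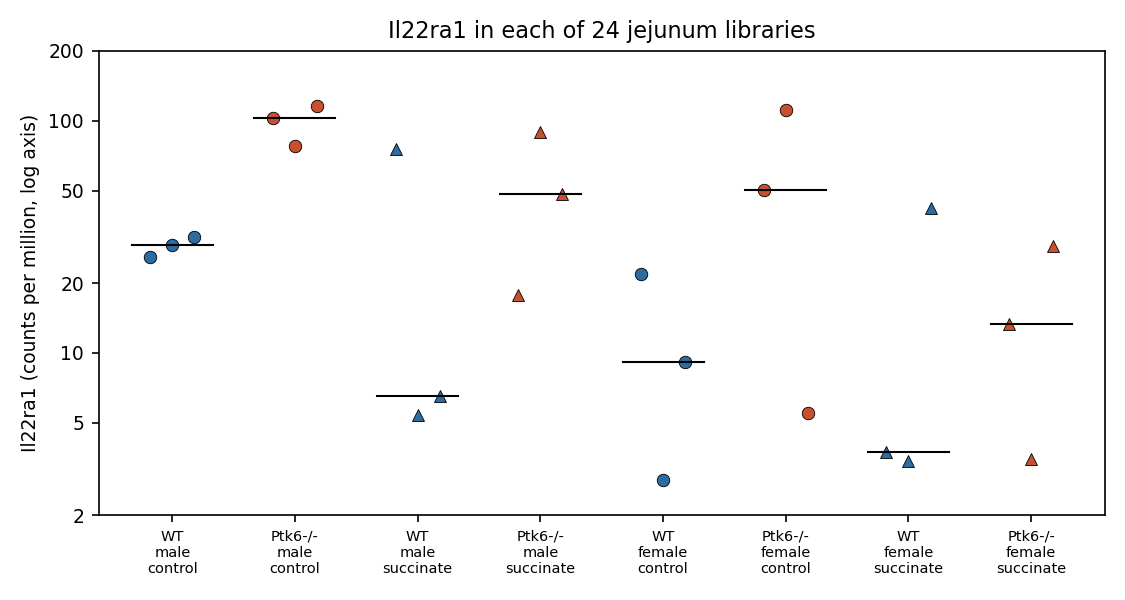
Il22ra1 in CPM (log axis) in each of the 24 libraries, by group, with replicates 1 to 3 from left to right and a line at the median. Control males form 2 separate groups at 25.9 to 31.6 CPM (wild type) and 77.7 to 115 CPM (Ptk6-/-), and within the other 6 groups the highest mouse is 4.998-fold to 20.1-fold above the lowest.

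Over all 24 libraries Il22ra1 ran from 2.85 to 115 CPM, a 40.5-fold range, with 65 to 5609 counts per library, so that counting error is small beside this spread. Its standard deviation within groups was 1.51 on the log2 scale, against a median of 0.44 over the 15526 genes with a mean of at least 1 CPM, and 179 of those genes (1.15%) had a larger one. The order of the group means ran from control Ptk6-/- males (98.7 ± 19.2 CPM, SD, n = 3) through control Ptk6-/- females (55.9 ± 53.3) and succinate-treated Ptk6-/- males (51.8 ± 35.8) to control wild type females (11.3 ± 9.66). No neighbouring groups in that order differed by more than the larger of their standard deviations.

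Il10rb (chr16:91203052-91222722, plus strand), the shared chain, was far more even, from 36.5 to 99.8 CPM with a median of 83.2, and its lowest value was in the shallow library of a succinate-treated Ptk6-/- male. Control wild type males had 56.4, 87.5 and 85.1 CPM and control Ptk6-/- males 76.7, 93.1 and 82.9 CPM. Control wild type females had 96.9, 60.3 and 90.2 CPM against 76.2, 72.4 and 81.0 CPM in control Ptk6-/- females. The genotypes overlapped for Il10rb in both sexes on regular water.

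Il22 (chr10:118040847-118045952, plus strand) had 0 to 19 counts per library, at most 0.410 CPM, and more than 3 counts, taken as the floor, in 10 of 24 libraries. The highest count, 19, was in a control wild type female whose group mates had 0. All 3 succinate-treated wild type females had 0 counts, and in each of the other 7 groups at least 1 library had 4 or more. The filter, which required 10 counts in 3 or more libraries of a comparison, left this gene out of each main comparison. In the fits without the filter Il22 was not called either (edgeR adjusted p-values from 0.682 to 1.00), and no difference in Il22 was detectable at this depth.

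Il22ra2 (chr10:19497746-19510429, plus strand), the decoy that binds interleukin 22 without signalling, had 0.162 to 3.80 CPM and 4 to 216 counts. Succinate-treated wild type males had the highest levels, 3.80, 1.84 and 3.01 CPM, and succinate-treated Ptk6-/- males had 1.10, 1.68 and 1.22 CPM. Control males of both genotypes overlapped, at 1.54 to 1.92 CPM in wild type and 0.632 to 1.97 CPM in Ptk6-/- mice.

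Stat3 (chr11:100775924-100830366, minus strand), the transcription factor of the pathway, had 96.3, 112 and 128 CPM in control wild type males and 167, 195 and 208 CPM in control Ptk6-/- males. Control wild type females had 128, 81.8 and 94.7 CPM and control Ptk6-/- females 121, 168 and 54.8 CPM. The males were separate by genotype and the females were not. The annotation of Stat3 shares 72 bases with Stat5a on the other strand, which had at most 454 counts against 191 to 9793 for Stat3.

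Socs3 (chr11:117856905-117860873, minus strand), which blocks signalling through STAT3 and is itself induced by it, had 32.9, 54.1 and 48.0 CPM in control wild type males and 58.9, 101 and 102 CPM in control Ptk6-/- males. In control females it had 34.1, 45.0 and 37.9 CPM in wild type and 32.8, 51.0 and 72.3 CPM in Ptk6-/- mice. Under succinate it was lowest in wild type females, at 9.50, 6.75 and 32.2 CPM, all below the control wild type females, although in FPKM the third of them, at 8.80, lay just above the lowest control at 8.62. Succinate-treated Ptk6-/- females had 47.8, 13.1 and 32.6 CPM and overlapped their controls.

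Il18 (chr9:50466127-50493140, plus strand) had 11.2 to 50.1 CPM. Succinate-treated wild type males had 11.2, 14.8 and 18.8 CPM and succinate-treated Ptk6-/- males 37.3, 24.05 and 34.5 CPM, with no overlap. In FPKM the same mice overlapped, at 9.95, 10.2 and 13.2 in wild type and 8.33, 16.6 and 25.2 in Ptk6-/- males, where the lowest value is that of the shallow library with 29.7% of its counts on 18S RNA and 136 counts on Il18. Among females, control wild type mice had 19.5, 34.4 and 26.4 CPM and succinate-treated wild type mice 13.5, 17.0 and 16.8 CPM, again with no overlap. The highest value, 50.1 CPM, belonged to the control Ptk6-/- female with the lowest Il22ra1 of its group. Genes on the other strand share sequence with Il18: Tex12, with at most 41 counts, and Bco2, with 355 shared bases and at most 3415 counts. The study's methods describe libraries with dUTP in the second strand and a UDG treatment. The sources used here do not say whether counting used strand. Whether reads of Il18 and Bco2 in the shared bases were kept apart is therefore not known.

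**Figure D2:**
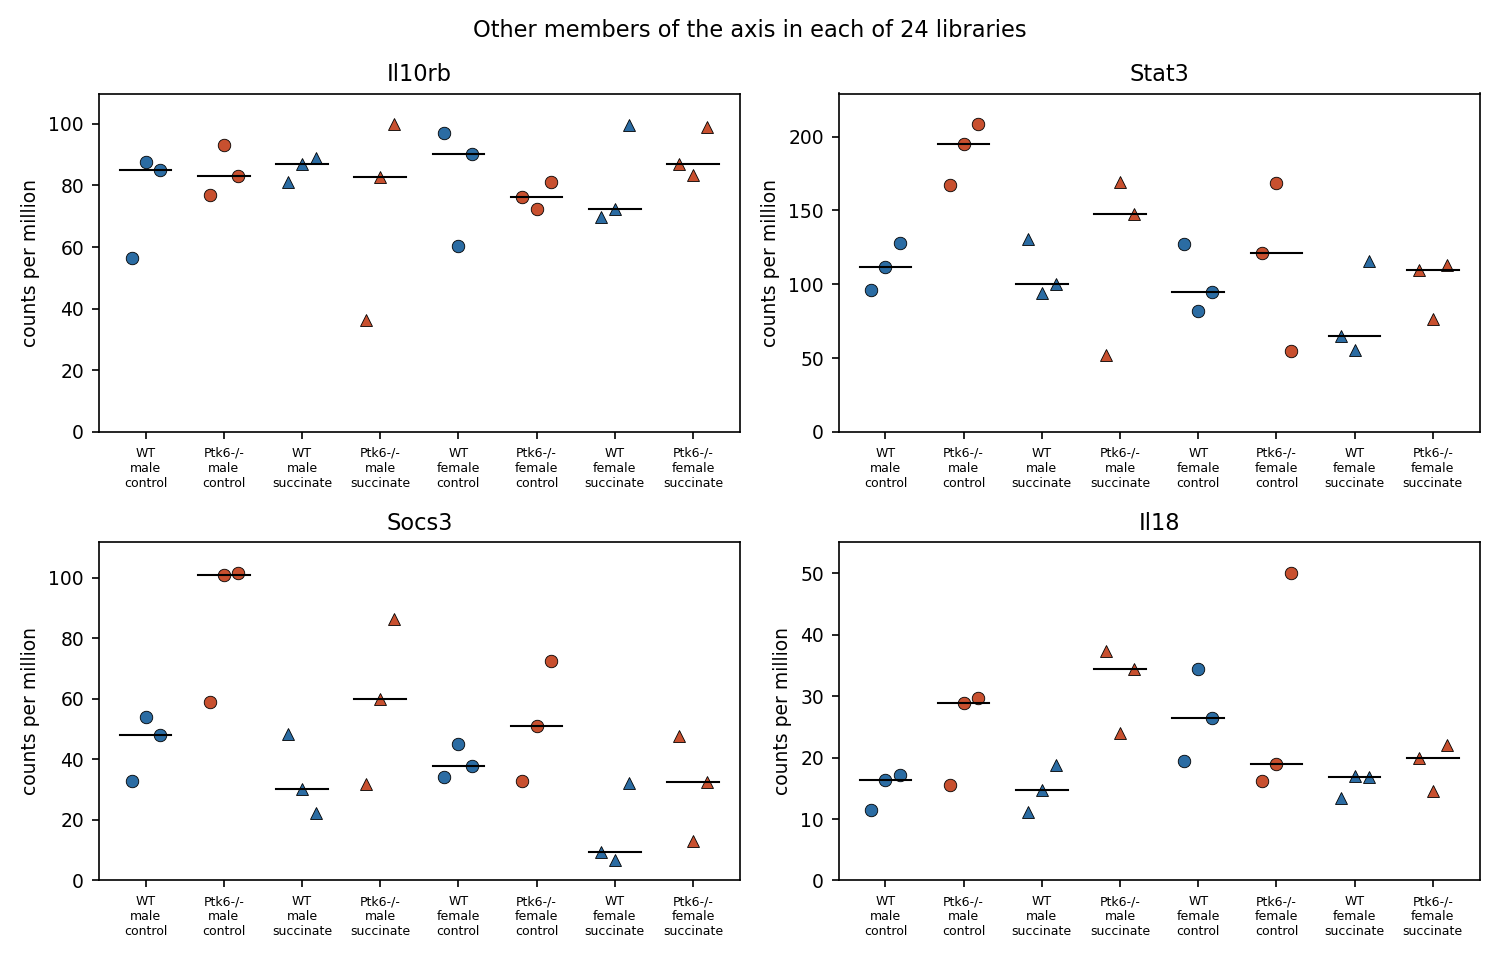
Il10rb, Stat3, Socs3 and Il18 in CPM (linear axes from 0) in each of the 24 libraries, by group, with replicates 1 to 3 from left to right and a line at the median. Il10rb stays near 83.2 CPM in most libraries, Stat3 and Socs3 are highest in control Ptk6-/- males, and Il18 separates the genotypes in succinate-treated males on this scale, though not in FPKM.

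The question of the first contrast was what loss of Ptk6 does in mice on regular water. In control males, where 142 of 19218 genes (0.739%) were called at an adjusted p under 0.05 and at least 2-fold, Il22ra1 was 1.76 higher on the log2 scale in Ptk6-/- mice (SE 0.16, 3.38-fold), Socs3 0.94 higher (SE 0.23) and Stat3 0.75 higher (SE 0.13). The libraries of 3 of the 6 members fitted did not overlap, all 3 higher in Ptk6-/- mice, beside 31.4% of all genes (16.5% in this direction), and nothing is read from this count since the contrast was known when the genes were picked. Il18 was 0.71 higher (SE 0.25), Il10rb 0.13 higher (SE 0.16) and Il22ra2 0.29 lower (log2 fold change -0.29, SE 0.43), with overlapping libraries. Length slopes were 0.10 to 0.15 in the control Ptk6-/- males and -0.06 to 0.01 in the control wild type males. With an offset that takes out each library's trend with gene length, the difference of Il22ra1 was 1.26, that of Socs3 0.49 and that of Stat3 -0.02. Paneth cell markers were also lower in these mice, with a summed level of 6995 to 17512 CPM against 19282 to 21610.5 CPM, 8 of 8 markers below 0 on the log2 scale and 1 of them called (Defa30, -1.15, edgeR adjusted p = 0.0375). Markers of T and NK cells summed to 83.5 to 105 CPM against 138 to 154 CPM, with 1 of 7 called lower (Nkg7, -1.12, edgeR adjusted p = 0.0498). In a bulk sample, fewer cells of a type and less RNA per cell cannot be told apart. The part of the markers in the values of Il22ra1 was not tested.

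In the same control males the lists of pathway genes, which were written with earlier results of these data known and are counted here without the members, gave few calls. Of 19 genes known to be induced by interleukin 22 in epithelium, 1 was called higher in Ptk6-/- mice and none lower: Tifa, an adaptor of innate immune signalling, at 1.05 (SE 0.22, edgeR adjusted p = 0.0410). The median of the list was 0.42, beside 0.02 over all genes tested. Of 12 target genes of STAT3 other than Socs3, 1 was called higher, Hif1a, a transcription factor of the hypoxia response, at 1.31 (SE 0.16, edgeR adjusted p = 0.0200). None of 10 Janus kinases and STATs other than Stat3 was called, with a median of 0.29, and the kinases bound to the receptor, Jak1 and Tyk2, had values of 0.54 (SE 0.10) and 0.30 (SE 0.12). Of the receptor chains other than Il22ra1, Ifnlr1, which pairs with Il10rb for interferon lambda, had 0.49 (SE 0.15), Il20rb 0.16 (SE 0.41) and Il10ra -0.11 (SE 0.23). At an unadjusted p under 0.05, 5 genes of the induced list, 2 of the STAT3 targets and 5 of the kinases and STATs were higher, members not counted, where 12.7% of all genes were. Cebpd, another STAT3 target, was lower at that threshold (-0.47, SE 0.20). The calls in control males did not hold well: without 1 mouse Hif1a was called in 2 of 6 fits, Defa30 in 1, and Tifa and Nkg7 in 0. All 4 calls were lost with the replicate block (edgeR adjusted p-values from 0.0539 to 0.104), with the length offset (0.184 or higher), with limma on FPKM and with all 24 libraries in 1 fit (edgeR adjusted p = 0.904), and DESeq2 kept them.

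Control females were other mice for the same contrast, and 3 of 19035 genes (0.0158%) were called there. The members and gene lists were chosen with earlier results of these data known, so their values in these females are not independent support. Il22ra1 had a log2 fold change of 2.36 (SE 1.04, 95% interval -0.06 to 4.77), which was not called (edgeR adjusted p = 0.454), and its libraries overlapped. Single mice moved this value between 1.38 and 3.26. It was 1.38 without replicate 2 of the Ptk6-/- females (edgeR adjusted p = 0.826). It was 2.90 without replicate 3 of that group (edgeR adjusted p = 0.0381, with 1808 genes called), a mouse at 5.54 CPM with a length slope of -0.10 where its group mates had 0.08 and 0.13. In the other 4 fits that left out 1 mouse it was not called. The other members fitted had values from -0.07 (Il10rb) to 0.44 (Socs3), and each of their intervals included 0. Libraries overlapped for 6 of the 6 members, where those of 18.9% of all genes did not, and no member passed the unadjusted threshold of 0.05 that 11.1% of all genes passed. With the length offset the value of Il22ra1 was 2.33 (SE 1.00). Of the genes induced by interleukin 22, 16 were tested in these females with 0 called by edgeR, 3 of them higher and 0 lower at an unadjusted p under 0.05, and 15 above 0 with a median of 0.64, beside 0.04 over all genes. The 3 were Fut2 (1.35), Nos2 (1.26) and Dmbt1 (1.53). The 10 Janus kinases and STATs other than Stat3 all had values above 0 (median 0.49), of which 0 were called and 1, Tyk2 (0.71), passed the unadjusted threshold. The targets of STAT3 other than Socs3 went in both directions, and none was called. At the unadjusted threshold Bcl3 was higher (1.13) and Bcl2l1 lower (-0.61).

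Under succinate, the genotypes were compared in each sex. Among the succinate-treated males 0 of 18904 genes were called by edgeR, with 514 at an unadjusted p under 0.05 (2.72%) and 67 called by DESeq2. Il18 was 1.13 higher on the log2 scale in Ptk6-/- males (SE 0.33, 95% interval 0.37 to 1.89, 2.19-fold), higher in 3 of 3 mice than in any wild type male in CPM and in 2 of 3 in FPKM, and was not called (edgeR adjusted p = 1.00). Its value was 2.00 with the length offset and 0.43 by limma on log2(FPKM + 1). Il22ra2 had a value of -1.07 (SE 0.52, 95% interval -2.26 to 0.12) and its libraries did not overlap either, beside 8.66% of all genes without overlap. Its lowest value came from the shallow Ptk6-/- library, with 4 counts on this gene, near the floor of 3. The values of Il22ra1 (0.83, 95% interval -1.50 to 3.16, and 0.19 to 3.16 without single mice) and Socs3 (0.84, 95% interval -0.15 to 1.83) stayed within the spread between mice. Of 19 genes induced by interleukin 22, 0 were called by edgeR, with 5 higher and 1 lower at an unadjusted p under 0.05. The higher ones were Reg3b (1.42), Reg3g (1.81), Saa1 (3.97), Nos2 (2.80) and Tifa (0.91). Saa1 spread from 27.1 to 310 CPM in the Ptk6-/- males, against 3.90 to 17.2 CPM in wild type. Its highest value was that of the shallow library. Nos2 spread from 110 to 1056 CPM in the Ptk6-/- males and overlapped the wild type males, at 26.0 to 129 CPM. The lower one was S100a8, a subunit of the neutrophil protein calprotectin (edgeR adjusted p = 0.266). It had 0 counts in each of the 3 Ptk6-/- males and 150 to 203 counts in the wild type males. Its absence was not particular to this genotype: S100a8 also had 0 counts in all control females of both genotypes. Succinate-treated females had at most 0.493 CPM, and control males 0.404 to 2.55 CPM (wild type) and 2.55 to 4.66 CPM (Ptk6-/-). The median of the list was 0.38 beside -0.03 over all genes. Of the receptor chains tested, Il10ra, the specific chain of the interleukin 10 receptor, had -1.03 and was not called. Of 6 B cell markers all had lower values in the same Ptk6-/- mice, with 0 called by edgeR, 6 at an unadjusted p under 0.05 and a median of -2.13. They summed to 16.0 to 37.8 CPM against 92.0 to 123 CPM in the wild type males. Control males had sums of 19.8 to 76.3 CPM (wild type) and 15.0 to 55.5 CPM (Ptk6-/-), so the wild type males given succinate were the group that stood high. Myeloid markers summed to 135 to 184 CPM in succinate-treated Ptk6-/- males against 205 to 326 CPM in succinate-treated wild type males. The part of these markers in the values of Il10ra was not tested.

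Among the succinate-treated females 0 of 19180 genes were called by edgeR, with 867 at an unadjusted p under 0.05 (4.52%) and 28 called by DESeq2. Il22ra1 had a log2 fold change of -0.10 between genotypes with an interval from -2.59 to 2.39, wide enough to hold the value seen in control females. The values of the other members ran from 0.16 (Il10rb) to 0.95 (Socs3), with libraries that overlapped in all 6 members, where those of 10.8% of all genes did not. Without single mice the value of Socs3 lay between 0.50 and 1.94. With both sexes in 1 fit, Il18 was 0.67 higher in Ptk6-/- mice (SE 0.23, 95% interval 0.17 to 1.18, edgeR adjusted p = 0.999), and 0.62 without the 2 libraries of these groups that stood apart. In that fit 1 of 20490 genes (0.00488%) was called and 2.83% passed the unadjusted threshold. The difference of the genotype effect between sexes was -0.85 for Il18 (SE 0.41, edgeR adjusted p = 0.950) and -0.95 for Il22ra1 (95% interval -4.54 to 2.64), and 0 of 20490 genes were called for this interaction (993 at an unadjusted p under 0.05, 4.85%, and 46 by DESeq2).

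The effect of succinate was tested in females. In wild type females 0 of 18872 genes were called by edgeR, with 1466 at an unadjusted p under 0.05 (7.77%) and 258 by DESeq2. Il18 had a log2 fold change of -0.75 under succinate (SE 0.28, 95% interval -1.41 to -0.09, edgeR adjusted p = 0.617) and Socs3 one of -1.25 (SE 0.56, 95% interval -2.56 to 0.05, edgeR adjusted p = 0.643). In CPM both were lower in 3 of 3 succinate-treated mice than in any control (in FPKM this held for Il18 but not for Socs3), beside 13.3% of all genes without overlap (7.31% lower). Leaving out single mice moved Socs3 between -2.22 and -0.88. It was -2.22 without replicate 3 under succinate, the mouse with the highest Il22ra1 and Socs3 of its group (edgeR adjusted p = 0.0179, with 597 genes called), and -0.88 without replicate 2, the library with heart and Y-linked transcripts (edgeR adjusted p = 1.00). The value of Il22ra1 turned from 0.57 to -1.60 without replicate 3.

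In Ptk6-/- females 17 of 19334 genes (0.0879%) were called, and none of the members, and 10.7% passed the unadjusted threshold. Il22ra1 had a value of -1.89 (SE 1.03, 95% interval -4.29 to 0.50, edgeR adjusted p = 0.538). Leaving out single mice moved it between -2.74 and -0.90. Il10rb, at 83.5 to 99.1 CPM under succinate and 72.4 to 81.0 CPM in controls, was the single member without overlap in CPM, beside 21.2% of all genes, and overlapped in FPKM (16.7 to 23.9 against 12.9 to 17.2), and its log2 fold change was 0.21 (SE 0.23). The difference between genotypes in the effect of succinate was -2.45 for Il22ra1 (SE 1.67, 95% interval -6.09 to 1.20, edgeR adjusted p = 0.812). It was -0.23 without replicate 3 of the wild type females given succinate and -3.33 without replicate 1 of their controls. In this test 0 of 20531 genes were called (1327 at an unadjusted p under 0.05, 6.46%, and 61 by DESeq2).

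With both genotypes in 1 fit, which gives the effect of succinate over 12 females, 176 of 20531 genes (0.857%) were called, 138 higher and 38 lower. Socs3 was lower under succinate by the unadjusted test, at -0.99 (SE 0.40, 95% interval -1.86 to -0.12), as was Il18, at -0.67 (SE 0.27, 95% interval -1.25 to -0.09), but with edgeR adjusted p-values of 0.333 and 0.322 neither was called. That unadjusted threshold of 0.05 was passed by 12.3% of all genes. Stat3 had a value of -0.28 (95% interval -0.89 to 0.33) and Il22ra1 one of -0.66 (95% interval -2.68 to 1.36), which single mice moved between -1.78 and -0.10. Over the 9 comparisons that were tested, 54 tests of members gave 0 calls by edgeR and 0 by DESeq2, with 5 and 10 at an unadjusted p under 0.05. Of the 5, 4 were for Il18 and 1 for Socs3. Over all genes, edgeR gave 2.72% to 12.3% under that threshold, depending on the comparison.

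**Figure D3:**
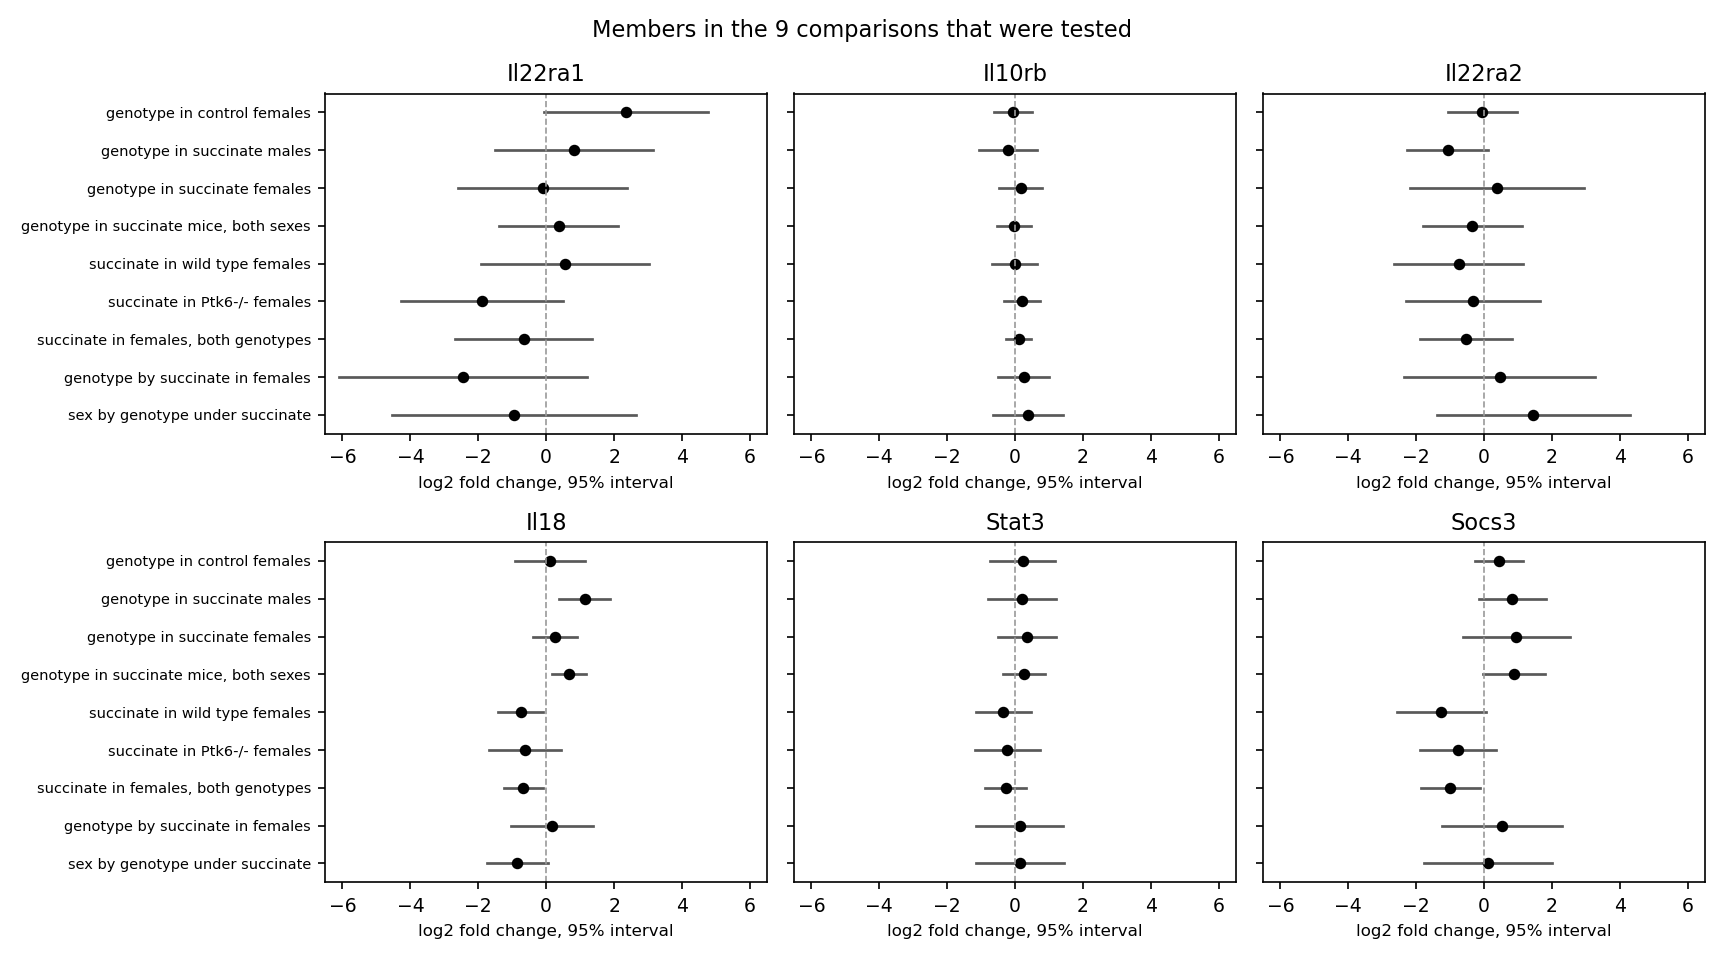
Log2 fold changes of 6 members (points) with 95% intervals (lines) from edgeR in the 9 comparisons that were tested, Ptk6-/- over wild type or succinate over control, and for the last 2 rows the difference between such effects. The intervals of Il22ra1 include 0 in each row, those of Il10rb do so too and are narrower, and the values of Il18 and Socs3 lie below 0 for succinate in females.

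In males the effect of succinate is a description, since the control males were known. The log2 fold change of Il22ra1 was 0.01 in wild type males and -0.91 in Ptk6-/- males, that of Socs3 -0.43 and -0.53, that of Stat3 -0.05 and -0.62, and that of Il18 -0.01 and 0.41. Libraries overlapped for all 6 members in both genotypes, where those of 8.77% and 23% of all genes did not, and edgeR called 0% of genes in either. The value in wild type males joins 1 succinate-treated mouse at 75.7 CPM, with a length slope of 0.11, and 2 at 5.38 and 6.51 CPM, with slopes of -0.10 and -0.07.

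The genes that interleukin 22 is known to induce moved in both directions under succinate in females. Of 19 tested, 3 were called higher and 4 lower in the fit over both genotypes, with a median of 0.13 beside 0.02 over all genes. The genes that fell were the antimicrobial lectins Reg3b (log2 fold change -4.01, SE 0.74, edgeR adjusted p = 0.0239) and Reg3g (-4.19, SE 0.72, adjusted p = 0.0157), Nos2, the inducible nitric oxide synthase (-4.15, SE 0.82, adjusted p = 0.0322), and Dmbt1, a mucosal scavenger protein (-1.68, SE 0.32, adjusted p = 0.0275). Reg3g had 1876 to 5269.5 CPM in control wild type females and 61.0 to 433 CPM under succinate, and 1949 to 13558.5 CPM and 87.6 to 575 CPM in Ptk6-/- females. The genes that rose were Fut2, a fucosyltransferase (3.01, SE 0.40, edgeR adjusted p = 0.00266), Duoxa2, the maturation factor of an epithelial oxidase (2.39, SE 0.46, adjusted p = 0.0270), and Retnlb, a goblet cell protein that interleukin 13 also induces (7.31, SE 1.06, adjusted p = 0.00530). Retnlb had 0.197 to 0.540 CPM in control wild type females and 0.901 to 120 CPM under succinate, and 0.510 to 0.722 CPM and 11.3 to 214 CPM in Ptk6-/- females. Fitted in each genotype alone, none of these 7 genes was called (edgeR adjusted p-values from 0.148 to 0.617).

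These calls did not all hold without single libraries. Fut2, Retnlb and, from the next list, Casp4 were called in each of 12 fits that left out 1 mouse, Reg3g in 11 (not without replicate 1 of the wild type females given succinate, adjusted p = 0.0541), Reg3b in 7 (adjusted p-values up to 0.0712 in the other 5), Duoxa2 in 4, Nos2 and Dmbt1 in 3 each and Il18bp in 2. Without the female library that held heart and Y-linked transcripts, Reg3b, Reg3g, Fut2, Retnlb and Casp4 were called and the other 4 were not (adjusted p-values from 0.0533 to 0.0765). Markers of other cell types moved in the same mice. Of 6 tuft cell markers 5 were called higher, with summed levels of 57.4 to 203 CPM under succinate against 16.4 to 29.7 CPM in controls. All 7 markers of T and NK cells had lower values (7 of 7 at an unadjusted p under 0.05, none called), with summed levels of 44.6 to 107 CPM against 72.7 to 267 CPM. Epithelial markers summed to 9039 to 14619 CPM under succinate against 18151 to 20449 CPM in wild type controls, without overlap, and to 10217 to 13636 against 11632 to 17760 CPM in Ptk6-/- mice. Enterocyte markers summed to 25719 to 34386.5 against 41478 to 48436 CPM in wild type mice and to 15582 to 18349 against 18795 to 52249 CPM in Ptk6-/- mice, without overlap in either. None of the 7 epithelial and 8 enterocyte markers was called (medians -0.41 and -0.63, with 2 lower and 1 higher at an unadjusted p under 0.05 in each list). Of 8 Paneth cell markers 1 was called higher (median 0.87), and of 5 smooth muscle markers 0 were called, with 2 higher at an unadjusted p under 0.05 (median 0.70). Myeloid markers summed to 131 to 231 CPM under succinate against 235 to 290 CPM in controls of Ptk6-/- females, without overlap. In wild type females they summed to 137 to 163 against 161 to 223 CPM. The part of these markers in the list was not tested.

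**Figure D4:**
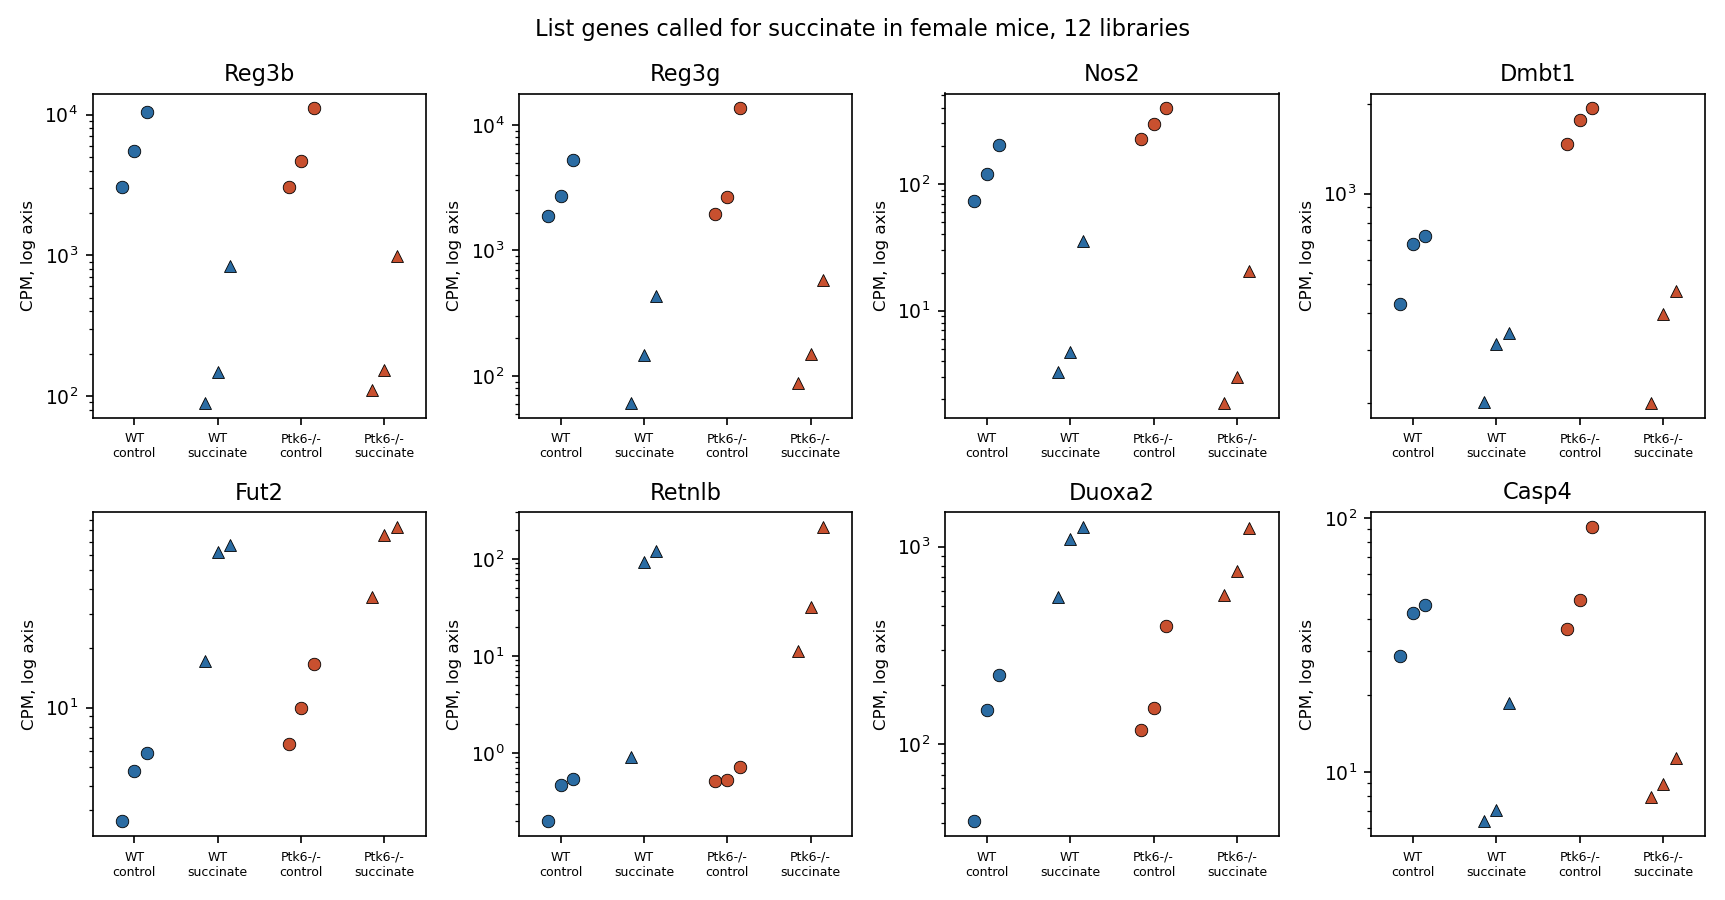
CPM (log axes) of 8 list genes called for succinate in females, in the 3 libraries of each female group, ordered by value within a group. Reg3b, Reg3g, Nos2, Dmbt1 and Casp4 lie lower under succinate in both genotypes, and Fut2, Retnlb and Duoxa2 lie higher.

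The list of the interleukin 18 pathway had 16 genes other than Il18 tested in the same fit, with 0 called higher and 2 lower. They were Casp4, an inflammatory caspase (-2.24, SE 0.34, edgeR adjusted p = 0.00647), and Il18bp, the soluble inhibitor of interleukin 18 (-1.24, SE 0.25, adjusted p = 0.0377). Of the 16 genes, 14 had values below 0, with a median of -0.48 beside 0.02 over all genes. Casp1, which cleaves the precursor of interleukin 18, had -0.87 (SE 0.23, edgeR adjusted p = 0.114) and Il18r1, a receptor chain, 1.14 (SE 0.36, adjusted p = 0.195), and neither was called.

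Other lists around the receptor, counted without the members, gave 0 calls by edgeR in this fit. Of 7 related receptor chains tested, Il10ra had 0.38 (SE 0.23), Il20rb 0.25 (SE 0.31) and Ifnlr1 -0.29 (SE 0.32). Of 10 Janus kinases and STATs, Jak1 had -0.39 (SE 0.23) and Tyk2 -0.34 (SE 0.23), and the median was -0.25. No gene was called among 15 inhibitors of cytokine signals, 12 cytokines and receptors that use gp130, 12 targets of STAT3 or 14 genes of the type 3 lymphocytes and cytokines that drive Il22, with 4, 1, 1 and 4 at an unadjusted p under 0.05, where 12.3% of all genes were.

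The members were then compared with each other across the 24 libraries, as a description, since the points share libraries, depth and group differences. Il22ra1 followed Stat3 (Pearson r = 0.84, Spearman rho = 0.90 on log2 CPM), and r was 0.84 after the group means were taken off, 0.75 within males and 0.89 within females. With Socs3 r was 0.67 (0.46 with the group means off, 0.83 in males and 0.45 in females) and with Il22ra2 0.41 (0.64, -0.26 and 0.66). With Il10rb it was 0.17 (0.39, 0.17 and 0.40) and with Il18 -0.05 (-0.49, 0.18 and -0.22). The values of Stat3 thus stayed close across these views, while those of Il22ra2 and Il18 differed in sign between males and females.

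Il22ra1 also followed the length slope of the libraries, with r = 0.83 and rho = 0.84 over 24 libraries, 0.88 without the 2 libraries farthest from the median slope and 0.88 with the group means off. Within males r was 0.84 and within females 0.89. Stat3 followed the slope alike (r = 0.83), Socs3 less (0.48), and Il18 had -0.16. Summed Paneth cell markers ran the other way from Il22ra1 (r = -0.81, and -0.74 with the group means off). Enterocyte markers had r = -0.40 (-0.69 with the group means off) and epithelial markers r = -0.16 (-0.41). What sets the slope was not tested. The length offset, which takes this trend out gene by gene, gave Il22ra1 values of 1.504 (SE 0.95) between genotypes in succinate-treated males, -0.29 (SE 1.02) in succinate-treated females and -0.74 (SE 0.91) for succinate over all females.

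**Figure D5:**
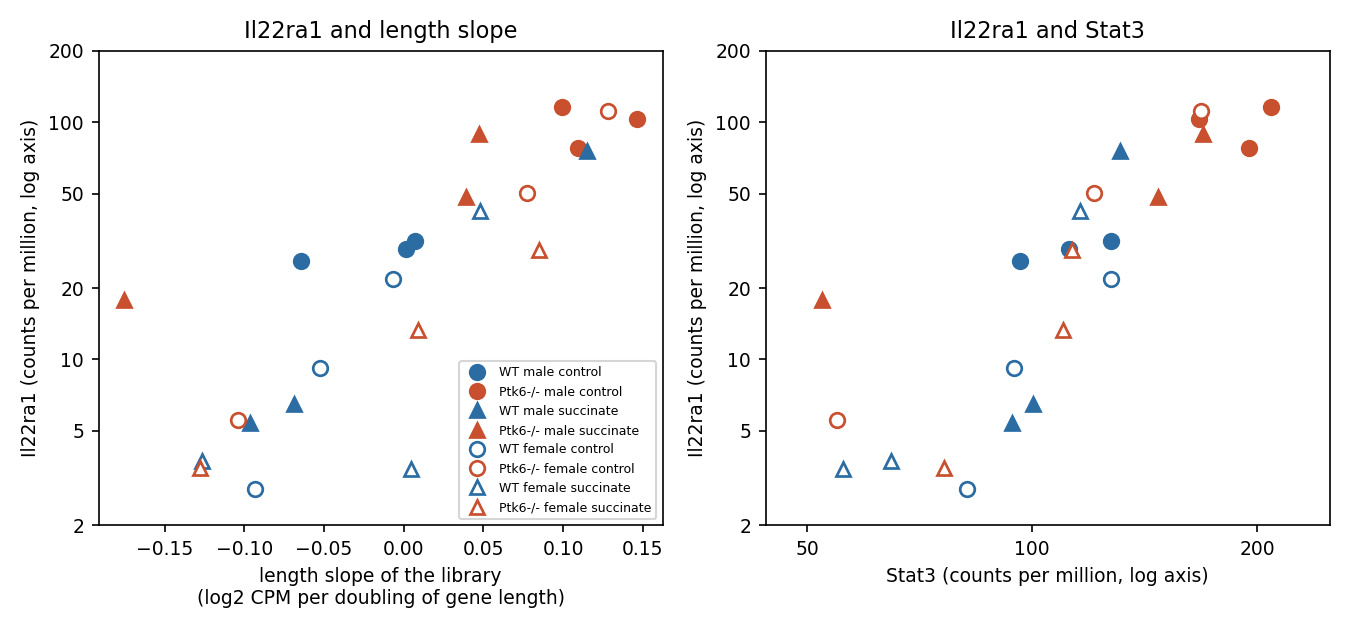
Il22ra1 (CPM, log axis) in 24 libraries against the length slope of the library (left) and against Stat3 (right, log axis), coloured by genotype, with triangles for succinate and open symbols for females. Il22ra1 is higher in libraries with a higher slope (r = 0.83) and with more Stat3 (r = 0.84).

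By the correlation of log2(CPM + 0.5) over the 24 libraries, the genes most like Il22ra1 were Elf4 (r = 0.98), Sh3d19, B4galnt2, Exph5 and Fam83b (each 0.97), out of 13956 other genes with a mean of at least 1 CPM, predicted genes with Gm and Rik names left out. The likeness is shared by many genes, with 160 above 0.9 and 787 above 0.8. Stat3 ranked 495th, Socs3 1866th, Il22ra2 4068th, Il10rb 5965th and Il18 7610th. With the group means taken off, B4galnt2, Elf4, Sbno1, Fndc3a and Sh3d19 led, of which 3 were also in the first set. These genes followed the length slope as well, with r of 0.82 for Elf4, 0.84 for Sh3d19, 0.81 for B4galnt2, 0.74 for Exph5 and 0.79 for Fam83b.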

How the data were processed

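Libraries of poly(A) RNA from the distal jejunum of 24 mice were sequenced by the authors. Per the study's methods, reads were trimmed with Cutadapt, aligned with HISAT2 and assembled with StringTie, and the submitters' processing notes name GRCm39. The authors deposited whole-number counts per gene in 1 table and FPKM from StringTie in another. The program that made the counts and its strand setting are not given in the sources used here. The members and gene lists were chosen with earlier results of these data known. Counts were scaled by TMM and tested with edgeR 4.0.16 (quasi-likelihood F test, R 4.3.3), on genes that reached 10 counts in 3 or more libraries of the comparison. P-values were adjusted over all genes by Benjamini-Hochberg, and genes were called at an adjusted p under 0.05 and at least 2-fold. Standard errors are the log2 fold change divided by the root of F. The floor was 3 counts, and counting error at these depths is small beside the spread between mice for each member except Il22 and Il22ra2.

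FPKM as deposited served to compare genes per length. Alternatives were limma 3.58.1 on log2(FPKM + 1) or log2(FPKM + 0.1) and DESeq2 1.42.0. Genes fitted by limma had a mean of at least 0.5 FPKM over the libraries of the fit. Others were DESeq2 size factors in edgeR, no filter, the replicate block and the length offset. All 24 libraries in 1 fit and leaving out each library were alternatives as well. Leaving out both libraries that stood apart, and all alternatives for list genes, were added after seeing the data. The 7 members were named in each comparison, list genes where they were called or belonged to the receptor chains, kinases or interleukin 22 targets, and the 5 genes most correlated with Il22ra1 (log2(CPM + 0.5), mean of at least 1 CPM). The main edgeR fit was tested on simulated counts for a single comparison, genotype in succinate-treated females, with the same dispersion for all genes. The alternatives and the other steps were not tested in this way.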

Additional observations from a re-analysis of the deposited data

How the results depend on the processing

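Of the member values in tested comparisons, none was called in any setting that kept all libraries, and leaving out single libraries called 2 (Il22ra1 in control females and Socs3 under succinate in wild type females, given above). Counts of genes called moved with the tool and with single libraries. For genotype in control males 142 genes became 311 with DESeq2, 5 with the replicate block, 240 with the length offset, 2 with limma on log2(FPKM + 1) and 1 with all 24 libraries in 1 fit, and 2 to 211 without single libraries. In control females 3 became 263 (DESeq2), 0 (replicate block) and 1 (1 fit), and 0 to 1808 without single libraries. In succinate-treated males 0 became 67 (DESeq2), 5 (no filter), 1 and 4 (limma, FPKM + 1 and + 0.1) and 1 (1 fit), and 0 to 2 without single libraries. In succinate-treated females 0 became 28 (DESeq2), 2 and 2 (limma) and 1 (1 fit), and 0 to 1 without single libraries. Over both sexes 1 became 4 (DESeq2) and 0 (length offset), and 1 to 3 without single libraries. For succinate in wild type females 0 became 258 (DESeq2), 4 (replicate block), 1 and 2 (limma) and 104 (1 fit), and 0 to 597 without single libraries. In Ptk6-/- females 17 became 433 (DESeq2), 0 (replicate block), 1 (length offset), 32 (limma, FPKM + 0.1) and 140 (1 fit), and 0 to 29 without single libraries. Over both genotypes 176 became 589 (DESeq2), 88 (replicate block) and 472 (1 fit), and 84 to 657 without single libraries. In wild type males 0 became 47 (DESeq2), 2 (no filter), 161 (length offset), 1 and 126 (limma) and 1 (1 fit), and 0 to 1077 without single libraries. In Ptk6-/- males 0 became 39 (DESeq2), 2 (no filter) and 2 (limma, FPKM + 0.1), and 0 to 2 without single libraries. For the interaction in females 0 became 61 (DESeq2), and for that of sex and genotype 46 (DESeq2) and 3 (limma, FPKM + 0.1), with 0 for both without single libraries. The libraries that decided these counts when left out were replicate 3 of the control Ptk6-/- females (1808), replicate 3 of the wild type females given succinate (597 and 657), replicate 1 of the succinate-treated wild type males (1077) and replicate 1 of the control wild type males (211). Mice with the same replicate number were not treated as pairs in the main fits. Deviations of same-numbered libraries from their group means had correlations from -0.49 to 0.35. With so few mice per group, these values cannot decide whether the numbers pair the mice. Values of members that turned sign were not called. In control females these were Il18 (-0.037 with the replicate block, -0.0078 and -0.011 with limma) and Stat3 (-0.19, length offset). In succinate-treated males they were Il10rb (0.45, length offset) and Stat3 (-0.43 and -0.60, limma). In succinate-treated females Il22ra1 had 0.42 (replicate block), 0.40 and 0.60 (limma) and Il10rb -0.090 (length offset). Over both sexes Il10rb had 0.16 (length offset) and 0.064 (without both libraries that stood apart) and Stat3 -0.0071 (limma, FPKM + 0.1). For succinate in wild type females Il10rb had 0.018 (length offset), 0.0095 and 0.011 (limma), and in Ptk6-/- females Stat3 had 0.062 and 0.093 (limma). In the interaction of genotype and succinate Il18 had -0.23 (length offset). In that of sex and genotype the length offset gave -0.51 for Il10rb, -0.46 for Stat3 and -0.85 for Socs3, and the fit without both libraries that stood apart -0.38 for Stat3 and -0.50 for Socs3. Without single libraries, signs turned in control females for Il10rb (-0.24 to 0.058), Il22ra2 (-0.30 to 0.21), Il18 (-0.56 to 0.38) and Stat3 (-0.16 to 0.57), in succinate-treated males for Il10rb (-0.47 to 0.061) and Stat3 (-0.094 to 0.51), and in succinate-treated females for Il22ra1 (-0.97 to 2.08) and Il22ra2 (-1.06 to 1.60). They turned over both sexes for Il10rb (-0.14 to 0.12) and Il22ra2 (-1.07 to 0.019), for succinate in wild type females for Il22ra1 (-1.60 to 1.46) and Il10rb (-0.19 to 0.13), and in Ptk6-/- females for Il22ra2 (-1.74 to 0.19), Il18 (-0.90 to 0.073) and Stat3 (-0.56 to 0.17). In the interaction of genotype and succinate they turned for Il22ra2 (-0.97 to 1.72), Il18 (-0.10 to 0.84) and Stat3 (-0.21 to 0.54), and in that of sex and genotype for Il22ra1 (-3.22 to 1.24), Stat3 (-0.16 to 0.53) and Socs3 (-0.33 to 1.11). Calls of list genes for succinate over all females were lost 49 times with their direction kept, for Il18bp (12), Nos2, Duoxa2 and Dmbt1 (10 each), Reg3b (6) and Reg3g (1), and those of Tifa, Hif1a, Defa30 and Nkg7 in control males 41 times, also with their direction kept. With counts near the floor, a difference in Il22 could not be measured at this depth. The cause of these changes was not tested.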
